A study of Mus musculus with 4 samples.

Results

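This account covers the nuclear genes of respiratory complexes I, II and III and of cytochrome c in mouse heart. Members were all genes whose symbol in the array's annotation begins with Nduf, Uqcr or Sdh followed by a, b, c or d, together with Cyc1 and Cycs. Probe sets annotated with a single symbol were taken, which gave 46 genes on 58 probe sets, of 8251 genes and 12488 probe sets on the array. By complex, 29 genes encode complex I subunits, 4 complex II, 8 complex III and 1 cytochrome c, and 4 encode assembly factors (2 for complex I and 2 for complex II). A list of 20 sarcomere genes on the array served as a comparison. It holds genes of the contractile filaments of heart muscle cells and of their Z-discs and linkers (Ldb3, Csrp3, Tcap, Actn2, Des).

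The study measured total RNA of whole hearts from wild-type and heterozygous mice on 4 one-colour oligonucleotide arrays, with 2 pools of 5 hearts in each genotype. All animals were adult males, 8 to 16 weeks old, on a mixed 129/Black Swiss background, and the 2 groups share every labelled property except genotype. Which gene carried the heterozygous allele is not reported here. The labels do not state that pools of a genotype came from different animals, so p-values measure only the spread among these 4 pools.

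The respiratory chain sits in the inner mitochondrial membrane. Complex I oxidises NADH and complex II oxidises succinate, both pass electrons to ubiquinone, and complex III hands them from ubiquinone to cytochrome c, which carries them to complex IV. Complexes I and III pump protons, complex II does not, and the resulting gradient drives ATP synthase. Heart muscle is packed with mitochondria, and the nuclear genes of these complexes are among its most strongly expressed.

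Values are the deposited linear signal intensities, and changes are log2 differences, heterozygous minus wild type, with limma's standard error (SE). Of 7453 probe sets bright enough to test, 17.9% were called higher and 20.4% lower in the heterozygous pools at a Benjamini-Hochberg adjusted p of 0.05. On 1 probe set a gene, the brightest, the shares were 19.5% higher and 19.5% lower of 5692 genes. Across tested probe sets, log2 signals correlated at 0.971 and 0.970 within the genotypes and at 0.845 to 0.856 between them. Cell type markers moved with genotype. Of 17 lymphocyte and thymus markers 16 fell and Lat did not pass (log2 change -0.02), with a median log2 change of -3.08; none was at 0. Their summed signal was 142129 and 139690 in wild type against 17371 and 17292 in heterozygotes. All 18 tested markers of dividing cells fell (median -2.32), while 14 of 20 sarcomere genes, 8 of 10 endothelial and 8 of 9 fibroblast markers rose (medians 0.66, 0.88 and 0.78). Of 3 erythroid genes 2 rose (median 0.90). Adipocyte markers (0 of 6 higher, 1 lower, median -0.04) and macrophage markers (1 of 7 higher, 1 lower, median 0.05) mostly did not pass. The arrays agree in trimmed mean signal, so signals are relative within an array, and the part of these marker shifts in the results below was not tested. In whole tissue, a change in the number of cells of a type and a change in RNA per cell cannot be told apart.

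Of the 46 member genes, 43 were bright enough to test, and 33 of these rose in the heterozygous pools. None was called lower by limma, also none at an unadjusted p of 0.05, and 10 did not pass. On probe sets, 35 of 48 were called higher, against 17.9% of all tested probe sets. Over all tested genes, 19.5% were called higher and 19.5% lower. In the top 2% of signal, which held 28 of the 43 members, 61.6% of genes were called higher. The counts by complex below are to be read beside the same shares. Log2 changes of the 43 genes ran from 0.17 to 1.08 with a median of 0.62 (1.53-fold), against a median of 0.02 over all tested genes. The median over all 46 genes, the dim ones included, was 0.58. Both heterozygous pools lay above both wild-type pools for 40 genes and below them for 0; the genotypes overlapped for 3. Over all tested genes the shares were 36.2% above and 34.5% below. Taking the pools pair by pair, the median member difference was 0.51 and 0.53 against wild-type pool 1 and 0.67 and 0.69 against wild-type pool 2. Differences within a genotype were smaller, with a median absolute log2 difference of 0.16 between the wild-type pools and 0.13 between the heterozygous pools. Wild-type pool 1 exceeded wild-type pool 2 in 36 of the 43 genes.

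**Figure D1:**
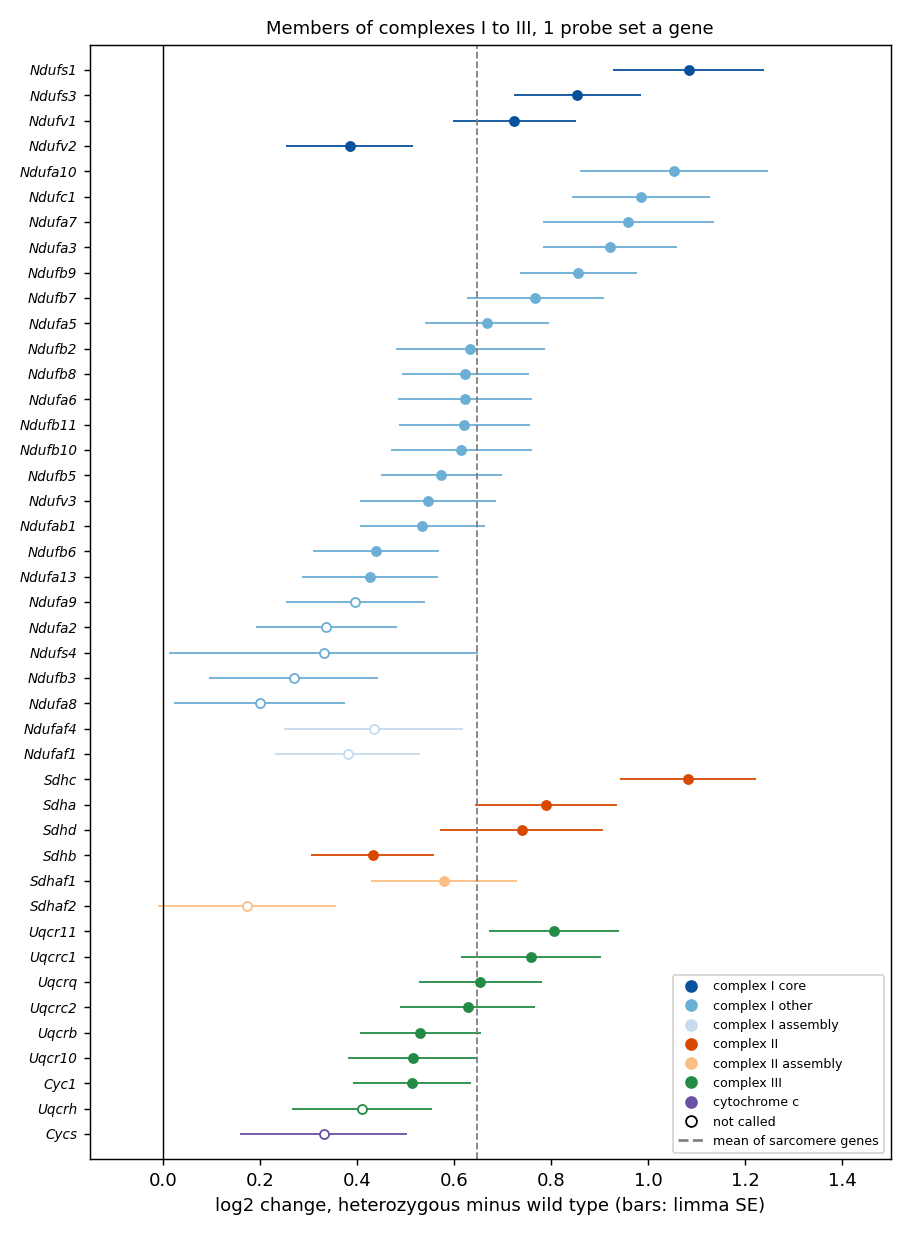
Log2 change of each of the 43 tested member genes (points, heterozygous minus wild type) with limma's SE (bars), coloured by complex; open points did not pass, and the dashed line marks the mean change of the sarcomere genes. All points lie above 0, from 0.17 to 1.08, and the 10 open points sit in the lower part of the range.

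Complex I takes electrons from NADH through flavin and iron-sulfur clusters in its matrix arm. Of its 29 subunit genes on the array 26 were tested, and 21 rose (median log2 change 0.62, range 0.20 to 1.08). The 4 core subunits measured, which carry out the electron transfer common to bacterial and mitochondrial enzymes, all rose (median 0.79). Ndufs1, the large iron-sulfur subunit of the NADH-oxidising module, had signals of 15505 and 12226.5 in wild type against 31021 and 27450 in heterozygotes. Each heterozygous value was above both wild-type values, a 2.12-fold difference (log2 change 1.08, SE 0.15, adjusted p = 0.000897). Ndufv1, which binds NADH and the flavin, had signals of 39156 and 34984 against 62857.5 and 59502. The genotypes did not overlap, and the rise was 1.65-fold (log2 change 0.72, SE 0.13, adjusted p = 0.00249). Ndufs3, a core subunit of the module that reaches ubiquinone, had signals of 21490 and 20047 against 39774 and 35394. It rose 1.81-fold without overlap (log2 change 0.85, SE 0.13, adjusted p = 0.00128). Ndufv2, the iron-sulfur partner of Ndufv1, rose least of the 4, from 32355 and 30023 to 38354.5 and 43186. That was a 1.31-fold rise (log2 change 0.38, SE 0.13, adjusted p = 0.0442), and its second, dimmer probe set was also called (log2 change 0.84, adjusted p = 0.0157). This second probe set carries the array's suffix for probes that may bind related sequences, so the source of its signal is uncertain. The Ndufv1 call ended without heterozygous pool 1 (log2 change 0.69, adjusted p = 0.0535). Ndufv2 lost its call when wild-type pool 2 (0.33) or either heterozygous pool (0.47 without pool 1, 0.30 without pool 2) was left out.

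The other 22 tested subunits of complex I are accessory or supernumerary proteins around that core, and 17 of them rose. Ndufb9, of the membrane arm, was at 26876 and 27275 in wild type against 49480 and 48595.5 in heterozygotes. Pools of a genotype differed little from each other and the genotypes were far apart (1.81-fold, log2 change 0.86, SE 0.12, adjusted p = 0.000862). Ndufc1, another membrane-arm subunit, had signals of 23955 and 22217 against 50507 and 41361. It rose 1.98-fold (log2 change 0.99, SE 0.14, adjusted p = 0.000932), with the heterozygous pools further apart than the wild-type pools. Ndufa3, also in the membrane arm, is the 1 member whose tested probe sets differed by more than 0.5 in log2 change. Its brighter probe set had signals of 27313 and 22956.5 against 49562 and 45450 and was called (0.92, SE 0.14, adjusted p = 0.00114). Its dimmer probe set had 1050 and 738 against 1210 and 1006, where the genotypes overlapped and the change did not pass (0.33, adjusted p = 0.305). Both Ndufa3 probe sets carry the array's suffix for probes that may bind related sequences, so the source of their signal is uncertain.

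The remaining called subunits of complex I numbered 14, with log2 changes of 0.43 to 1.05 and adjusted p of 0.00309 to 0.0395 in limma. The largest were Ndufa10 (1.05), Ndufa7 (0.96) and Ndufb7 (0.77), all accessory subunits. Ndufa10 had signals of 1195 and 1645 in wild type against 2908.5 and 2912 in heterozygotes. The heterozygous pools were nearly equal and both lay well above the wild-type pools. Ndufa7 had 23240 and 22223 against 36745 and 53125, so its heterozygous pools differed from each other but not enough to reach the wild-type range. In the middle of the range lay Ndufa5 (0.67), Ndufb2 (0.63), Ndufa6, Ndufb8, Ndufb11 and Ndufb10 (each 0.62), Ndufb5 (0.57), Ndufv3 (0.55) and Ndufab1 (0.54), the mitochondrial acyl carrier protein. Ndufb6 (0.44) and Ndufa13 (0.43) were lowest. The signal of Ndufa5, Ndufb2 and Ndufb5 came from probe sets marked as shared with similar transcripts or families. When a single pool was left out, 12 of the 14 lost their call in at least 1 case, the exceptions being Ndufa10 and Ndufa7. Their log2 changes in those cases ran from 0.35 (Ndufa13 without heterozygous pool 2) to 0.74 (Ndufb10, likewise without heterozygous pool 2). Ndufa13 lost its call whichever pool was left out (0.37 without wild-type pool 1, 0.48 without wild-type pool 2 and 0.50 without heterozygous pool 1).

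Of the tested complex I subunits, 5 did not pass. Ndufa9 (log2 change 0.40, adjusted p = 0.0562) and Ndufa2 (0.34, adjusted p = 0.0992) had both heterozygous pools above both wild-type pools. Ndufs4 (0.33), a matrix-arm subunit whose loss causes Leigh-like disease, Ndufb3 (0.27) and Ndufa8 (0.20) had overlapping genotypes. Ndufs4 had a mean signal of 518.5, not far above the lowest tested mean on the array (348.95). Ndufa1, Ndufa12 and Ndufc2 were too dim to test. All 10 untested member probe sets, which include second probe sets of tested genes, had signals between 6.7 and 390.2.

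Complex I is built stepwise with the help of assembly factors that are absent from the finished enzyme. The 2 on the array, Ndufaf1 (log2 change 0.38, adjusted p = 0.0739) and Ndufaf4 (0.43, adjusted p = 0.0941), did not pass, although both heterozygous pools exceeded both wild-type pools for each.

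Complex II, succinate dehydrogenase, also works in the citric acid cycle and is the only 1 of the 3 complexes with no subunit encoded in mitochondrial DNA. All 4 of its subunit genes rose, with a median log2 change of 0.76 (range 0.43 to 1.08). Sdhc, a membrane anchor that helps bind ubiquinone, had signals of 19021.5 and 17698 in wild type against 42617 and 35453 in heterozygotes. Both heterozygous pools were far above both wild-type pools, a 2.12-fold rise with the smallest adjusted p of all members (log2 change 1.08, SE 0.14, adjusted p = 0.00055). Sdhd, the other anchor, had 15910 and 11485 against 22705 and 22436. The wild-type pools differed more than the heterozygous ones and did not reach them (1.67-fold, log2 change 0.74, SE 0.17, adjusted p = 0.00864). Sdha, the flavoprotein that oxidises succinate, had 4518 and 4344 against 8249 and 7113. It rose 1.73-fold without overlap (log2 change 0.79, SE 0.15, adjusted p = 0.00333). Sdhb, the iron-sulfur subunit, had 34539 and 31174 against 43518.5 and 45078, on a probe set marked as shared by several transcripts. It rose 1.35-fold (log2 change 0.43, SE 0.13, adjusted p = 0.0252), the smallest change in this complex. The Sdha call ended without heterozygous pool 1 (0.68, adjusted p = 0.0509). Those of Sdhd (0.73 and 0.75) and Sdhb (0.46 and 0.41) ended without heterozygous pool 1 or heterozygous pool 2, and that of Sdhb also without wild-type pool 2 (0.36).

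Among complex II assembly factors, Sdhaf1, which protects the iron-sulfur clusters of Sdhb, rose from 3696 and 3456 to 5681 and 5018 (log2 change 0.58, adjusted p = 0.0154). Its probe set carries the suffix for probes that may bind related sequences. It lost this call when wild-type pool 2 (0.53) or either heterozygous pool (0.49 without pool 1, 0.67 without pool 2) was left out. Sdhaf2, needed to attach the flavin to Sdha, changed least of all members and did not pass (0.17, adjusted p = 0.491).

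**Figure D2:**
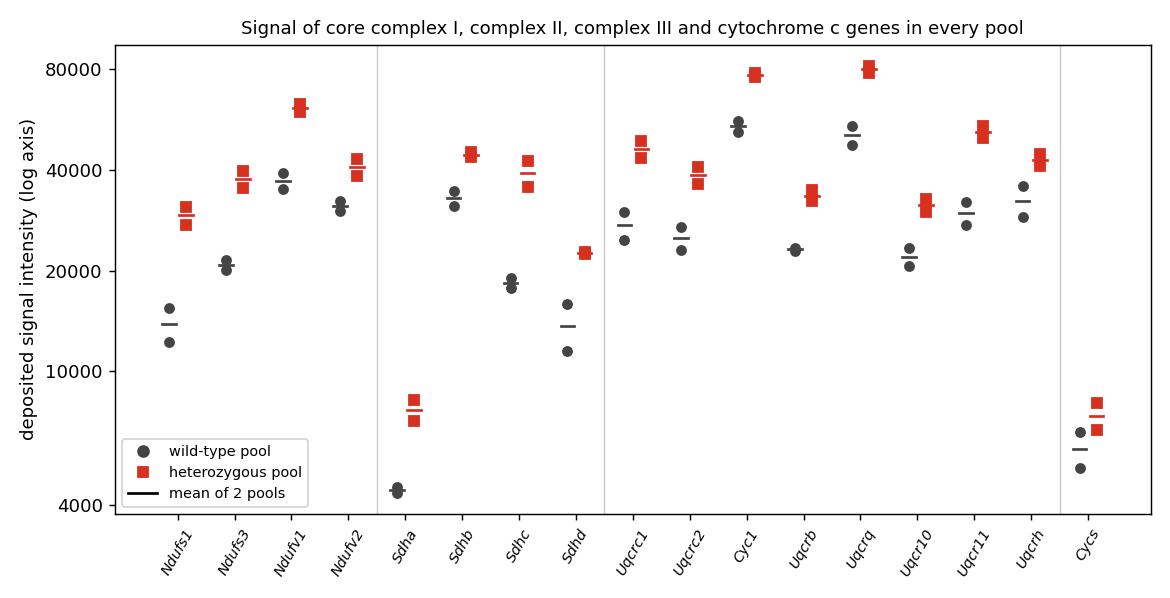
Deposited signal intensity (log axis) in every pool for the genes of core complex I, complex II, complex III and cytochrome c; grey circles are wild-type pools, red squares heterozygous pools and short lines the mean of 2 pools. The heterozygous squares lie above the wild-type circles for each gene, widest apart for Ndufs1 and Sdhc and closest for Cycs (wild-type pool 2 at 6604, heterozygous pool 2 at 6698).

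Complex III, the cytochrome bc1 complex, had 8 genes on the array, all tested. Of these 7 rose, with a median log2 change of 0.58 over the 8 and a range of 0.41 to 0.81. Uqcr11, one of the small supernumerary subunits, had signals of 31981 and 27456 in wild type against 53945.5 and 49760 in heterozygotes. The genotypes were well separated (1.75-fold, log2 change 0.81, SE 0.13, adjusted p = 0.00192). The core proteins Uqcrc1 and Uqcrc2 face the matrix and resemble a processing peptidase. Uqcrc1 had 29914 and 24668 against 48802 and 43301 (1.69-fold, log2 change 0.76, SE 0.14, adjusted p = 0.00362). Uqcrc2 had 26911 and 22996 against 36241 and 40828 (1.55-fold, log2 change 0.63, SE 0.14, adjusted p = 0.00762). Neither core protein gene had overlapping genotypes. Cyc1 encodes cytochrome c1, the haem subunit that reduces cytochrome c, and had 55796 and 51960 against 77954.5 and 75807. It rose 1.43-fold (log2 change 0.51, SE 0.12, adjusted p = 0.0102), while its dimmer probe set overlapped between the genotypes and did not pass (0.28, adjusted p = 0.293).

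The other small subunits of complex III behaved alike in direction. Uqcrq had 53996 and 47535.5 in wild type against 81598 and 77981 in heterozygotes (1.57-fold, log2 change 0.65, SE 0.13, adjusted p = 0.00404). Uqcrb had 22910 and 23418 against 32298 and 34692 (1.45-fold, log2 change 0.53, adjusted p = 0.0101). Uqcr10 had 23307 and 20591 against 32808 and 29888 (1.43-fold, log2 change 0.52, SE 0.13, adjusted p = 0.0154). These 3 genes had no overlap between genotypes. Uqcrh, the hinge protein that joins cytochrome c1 to cytochrome c, had 35702 and 28883 against 44509 and 40947. Its pools did not overlap either, but the change missed the threshold (1.33-fold, log2 change 0.41, SE 0.14, adjusted p = 0.0503). Without heterozygous pool 1 the calls of Uqcrc1 (0.67), Uqcrc2 (0.72), Uqcrq (0.62), Uqcrb (0.58), Uqcr10 (0.45) and Cyc1 (0.49) ended. Without heterozygous pool 2 those of Uqcrc2 (0.54), Uqcrq (0.69), Uqcrb (0.48), Uqcr10 (0.58) and Cyc1 (0.53) ended. Uqcr11 was called without each pool in turn. The probe sets of Uqcrb and Uqcrc2 carry the suffix for probes that may bind related sequences.

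Cycs, the somatic cytochrome c, is the mobile carrier between complexes III and IV and also takes part in apoptosis. Its signals were 5162 and 6604 in wild type against 8057 and 6698 in heterozygotes. The heterozygous pools were higher, but the nearest pair of pools was close. The change did not pass (log2 change 0.33, SE 0.17, adjusted p = 0.161), and its 95% interval ran from -0.06 to 0.72.

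Called members ranged from 1.31-fold to 2.12-fold. Of the 33 called genes, 9 were called in limma whichever pool was left out: Ndufa10, Ndufa3, Ndufa7, Ndufb9, Ndufc1, Ndufs1, Ndufs3, Sdhc and Uqcr11. Without heterozygous pool 1 or without heterozygous pool 2, 12 member genes were called, against 9.47% and 9.57% of all genes. With no filter on dim probe sets, which enlarges the family of tests and changes the fitted trend, 5 were called (Ndufb9, Ndufa6, Sdha, Sdhc and Ndufs3), against 4.79% of all genes.

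Members were among the brightest probe sets on the array, and the share of genes called higher grew with signal. In the top 2% of mean signal, 109 of 177 genes (61.6%) were called higher and 28 (15.8%) lower, with a median log2 change of 0.54. That tier held 28 of the 43 tested members, of which 26 (92.9%) were called higher, with a median of 0.63; the tier counts include these members. In the tier between the 95th and 98th percentiles, 3 of 6 members were called, beside 47% of 317 genes. Among genes between the 40th and 60th percentiles, 8.01% were called higher. The members' counts are therefore to be read against the share at their signal as well as against 19.5% over all genes. Scaling matters here too. With arrays shifted to a common median, which moved the median change of all genes to 0.20, 39 of 43 members were called higher. With quantile normalization 27 were, and with cyclic loess 19 were, against 27.5%, 21.6% and 17.8% of all genes.

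**Figure D3:**
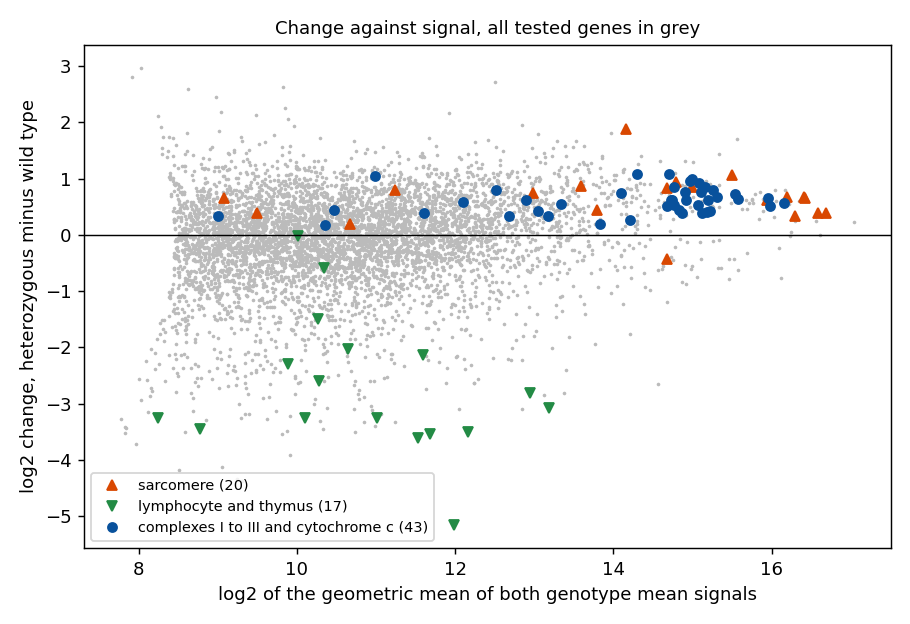
Log2 change (vertical) against the log2 geometric mean of the genotype mean signals (horizontal) for all tested genes in grey, with the members and the comparison lists in colour. Members lie at the bright end, 28 of 43 in the top 2% of signal, where most grey points are also above 0 (61.6% of genes called higher in that tier).

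The same fit was repeated with every array centred on the mean log2 signal of the 20 sarcomere genes, whose own mean change was 0.65 (range -0.43 to 1.88, highest for Ldb3). This places the respiratory genes against the contractile genes of the same tissue. On this scale 3.02% of all genes were called higher and 52.9% lower. Of the 43 members, 3 were called higher, 0 lower and 40 did not pass; at an unadjusted p of 0.05, 4 were higher and 4 lower. None of the 3 calls held without a trend in eBayes (adjusted p = 0.0875 to 0.165) or with no filter on dim probe sets (adjusted p = 0.0559 to 0.120), and that of Ndufc1 also ended under quantile normalization (0.32) and cyclic loess (0.28). The count of 0 lower was 1 under quantile normalization, 2 when the filter took the dimmest 60% of probe sets, 4 under cyclic loess and 6 with the pool number as a block. The median relative change was -0.03, with 16 members above 0, 27 below and 28 within 0.25 of 0. The 3 called were Sdhc (0.43, 95% interval 0.15 to 0.72, adjusted p = 0.0157), Ndufs1 (0.44, interval 0.13 to 0.74, adjusted p = 0.0215) and Ndufc1 (0.34, interval 0.06 to 0.62, adjusted p = 0.0438). Sdhc was not called without wild-type pool 2 (0.43, adjusted p = 0.0536) or heterozygous pool 1 (0.31, adjusted p = 0.148). Ndufs1 lost its call with wild-type pool 2 (0.31) or either heterozygous pool (0.35 without pool 1; 0.52 without pool 2, adjusted p = 0.0526) left out. Ndufc1 lost its call with either wild-type pool (0.35 without pool 1, 0.33 without pool 2) or heterozygous pool 1 (0.20) left out. At the other end lay Sdhaf2 (-0.47, interval -0.92 to -0.02) and Ndufa8 (-0.45, interval -0.84 to -0.05, adjusted p = 0.0529), neither of them past the threshold. Uqcrq, near the middle, had one of the narrower intervals, -0.22 to 0.23. Over the members that did not pass, the 95% intervals reached as low as -1.06 and as high as 0.89. Larger shifts than those of Uqcrq could therefore also go undetected. Ndufa10, for example, did not pass at 0.41 (interval -0.07 to 0.89).

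By complex, the median relative change was -0.03 for complex I (range -0.45 to 0.44), 0.12 for complex II, -0.07 for complex III (range -0.24 to 0.16) and -0.32 for Cycs. Averaged over the genes of a complex, with the wild-type mean set to 0, complex I lay at 0.01 and -0.01 in wild type against -0.03 and -0.01 in heterozygotes. Complex II lay at 0.05 and -0.05 against 0.16 and 0.06, with the heterozygous pools above. Complex III lay at 0.04 and -0.04 against -0.03 and -0.06, so the genotypes overlapped. The 2 complexes downstream are given for comparison. Complex IV lay at -0.01 and 0.01 against -0.28 and -0.27, with a median relative change of -0.18. Of its 13 genes 2 were called lower, Cox6a1 (-0.87) and Cox7a2l (-0.45), beside 52.9% of all genes. This list was taken by symbol and holds isoforms that differed. Only Cox7a1 (0.21), Cox6a2 (0.16) and Cox8b (0.03) were above 0, and Cox6b2 was lowest (-0.88). ATP synthase lay at -0.05 and 0.05 against -0.22 and -0.11, with a median of -0.15, 1 of 13 genes called higher and 1 lower. Its genes ranged from -0.95 (Atp5g1) to 0.65 (Atp5j). Each gene counts equally in these means, and some low values came from dim probe sets. Atp5g1 had mean signals of 416 in wild type and 341 in heterozygotes, and Cox6b2 552 and 480. Atp5pb (-0.40) and Cox6b1 (-0.47) were also dim. No test of the differences between complexes was made. Before centring, 7 of 13 complex IV genes and 7 of 13 ATP synthase genes were called higher (medians 0.47 and 0.50), and none lower. Over all genes the shares were 19.5% higher and 19.5% lower.

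**Figure D4:**
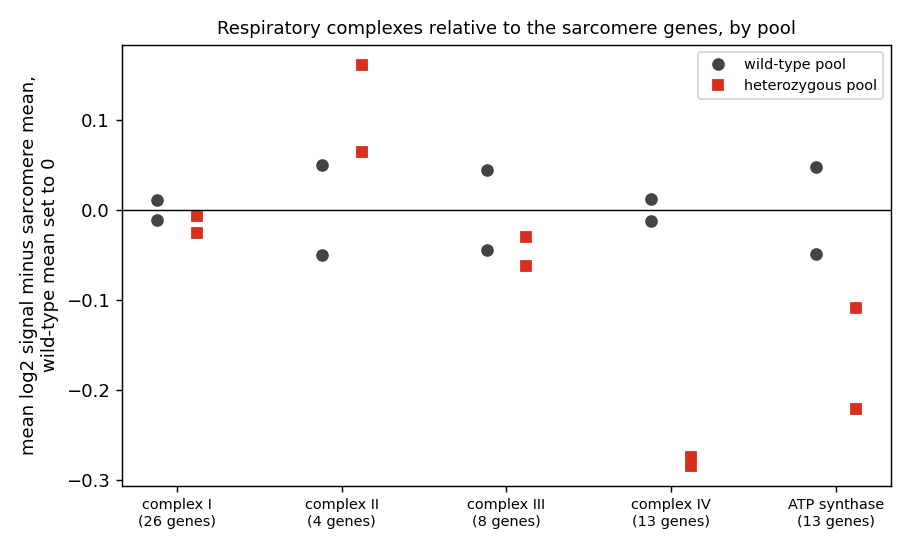
Mean log2 signal of each complex minus the sarcomere mean in the same pool, with the wild-type mean set to 0; grey circles are wild-type pools and red squares heterozygous pools. Complexes I, II and III stay between -0.06 and 0.16, while both heterozygous pools of complex IV (-0.28 and -0.27) and of ATP synthase (-0.22 and -0.11) lie below the wild-type pools. Relative changes of single complex IV genes ranged from -0.88 to 0.21 and those of ATP synthase genes from -0.95 to 0.65. Each gene counts equally in the means, dim ones included.

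Other genes that act on these complexes were read from lists drawn up for this purpose. Of 10 genes of ubiquinone synthesis and of electron delivery to ubiquinone, 7 rose and none was lower (median log2 change 0.67). Over all genes 19.5% were called higher and 19.5% lower. The smallest p-values were those of Coq9 (1.17, adjusted p = 0.000381), a lipid-binding protein of ubiquinone synthesis, Coq7 (0.84, adjusted p = 0.00317), a hydroxylase of that pathway, and Etfa (0.63, adjusted p = 0.00504), a subunit of the electron transfer flavoprotein. Etfa lost its call with either heterozygous pool left out (0.66 without pool 1, 0.59 without pool 2). Relative to the sarcomere genes, Coq9 was called higher in limma (0.52, adjusted p = 0.00767) and Gpd2 lower (-1.21, adjusted p = 0.000922). The others of this list did not pass on that scale. Of 78 genes of mitochondrial import, ribosomes and chaperones, 14 rose (median 0.25), near the 19.5% of all genes called higher. None fell, against 19.5% of all genes called lower. The smallest p-values of that list were those of Mrps36 (log2 change 0.84), the chaperone Hspa9 (0.79) and Clpp (0.85), a matrix protease. Mrps36 entered the list by its symbol prefix alone. Relative to the sarcomere genes, 31 of these 78 were called lower (median -0.40), against 52.9% of all tested genes (median -0.63).

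The list of regulators of mitochondrial biogenesis held transcription factors, co-regulators and mitochondrial enzymes such as Sirt3, Polg and Polrmt. Of its 12 tested genes, 3 rose and 4 fell, with a median log2 change of 0.09. With so few genes, these counts are not far from the 19.5% of all genes called in either direction. Sirt3 (1.11, adjusted p = 0.00215), a mitochondrial deacetylase, Esrra (0.91, adjusted p = 0.00350), the oestrogen-related receptor that drives many respiratory genes, and Ppara (0.80, adjusted p = 0.00548), a receptor that controls fatty acid oxidation, rose. The 4 that fell were Sp1 (-0.58) and Yy1 (-0.57), both general factors with sites in many respiratory gene promoters, Gabpb1 (-0.75), the partner of Gabpa in the factor also called NRF-2, and Nrip1 (-0.57), a co-repressor. The last 4 are named because they complete the count, and were chosen after their values were seen. Gabpa itself did not pass (-0.08; 0.10 with a common median), and was also named after its value was seen. Leaving out 1 pool ended the calls of Esrra (0.78 without heterozygous pool 2) and Ppara (0.73 without heterozygous pool 1). Sp1, Yy1, Gabpb1 and Nrip1 each lost their call in at least 3 of the 4 cases, with log2 changes of -0.92 to -0.44 there. With arrays shifted to a common median these 4 did not pass (-0.57 to -0.39). With no filter on dim probe sets, only Sirt3 of the called regulators kept its call. On the scale relative to the sarcomere genes, Sirt3 (0.46), Esrra (0.26) and Ppara (0.15) did not pass. Gabpa (-0.73, adjusted p = 0.0207 in limma), Polg (-1.01), Sp1 (-1.23), Yy1 (-1.22), Gabpb1 (-1.39) and Nrip1 (-1.22) were called lower there, beside 52.9% of all genes.

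The sequence around the gene starts was read from RefSeq promoters (build GRCm38.p6), in which 38 of the 46 members were found. Sdhc and Ndufs1 were not among them. Any link between promoter motifs and the changes was not tested, and Nrf1 itself was not among the tested regulators. Windows reached from 250 bases before to 50 bases after the annotated start and were searched on both strands. The NRF1 core GCATGCGC was found in 7 of 38 members (18.4%), against 3.05% of 27025 genes. The ETS motif CCGGAAG, bound by GABP, was found in 10 (26.3%) against 9.93%, and the YY1 motif AAGATGGC in 5 (13.2%) against 3.19%. The motif AAGGTCA of oestrogen-related receptors was found in 2 (5.26%) against 5.38%. For comparison, CCAAT was found in 14 (36.8%) against 41.1% and TATAAA in 3 (7.89%) against 15.7%. At least 1 of the first 4 motifs was in 21 of 38 members (55.3%), against 19.7% of all genes. Median GC content was 59.5% in the members and 52.8% in all genes, and GC content alone changes how often such motifs occur. A match describes letters in the window and does not show that a factor binds there. Matches of GCATGCGC on opposite strands can overlap each other. The sequences of 4 members are shown, 1 from each complex and cytochrome c, because they hold the NRF1 or ETS motif and span the range from clear rises (Ndufs3, Uqcr11) to no call (Cycs). Each is the 250 bases before the annotated start, 5′ to 3′ on the gene's strand, with NRF1, ETS and CCAAT matches on either strand in capitals. The stretches are chr2:90904722-90904971 (minus strand) for Ndufs3, chr4:140961021-140961270 (plus) for Sdhb, chr10:80406822-80407071 (minus) for Uqcr11 and chr6:50566570-50566819 (minus) for Cycs.
Ndufs3: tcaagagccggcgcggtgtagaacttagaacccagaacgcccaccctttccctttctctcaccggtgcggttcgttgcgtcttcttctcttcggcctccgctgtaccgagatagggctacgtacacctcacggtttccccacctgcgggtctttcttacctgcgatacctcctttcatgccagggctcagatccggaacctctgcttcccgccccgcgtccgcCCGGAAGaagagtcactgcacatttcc
Sdhb: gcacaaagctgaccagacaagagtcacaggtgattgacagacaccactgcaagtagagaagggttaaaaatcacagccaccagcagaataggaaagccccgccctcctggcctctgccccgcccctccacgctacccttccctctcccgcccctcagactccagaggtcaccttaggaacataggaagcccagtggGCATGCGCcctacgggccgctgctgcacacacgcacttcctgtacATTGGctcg
Uqcr11: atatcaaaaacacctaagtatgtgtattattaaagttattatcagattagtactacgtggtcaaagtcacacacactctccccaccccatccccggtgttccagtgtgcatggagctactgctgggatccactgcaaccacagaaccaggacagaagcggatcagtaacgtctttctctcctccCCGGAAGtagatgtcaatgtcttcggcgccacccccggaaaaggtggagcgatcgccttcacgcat
Cycs: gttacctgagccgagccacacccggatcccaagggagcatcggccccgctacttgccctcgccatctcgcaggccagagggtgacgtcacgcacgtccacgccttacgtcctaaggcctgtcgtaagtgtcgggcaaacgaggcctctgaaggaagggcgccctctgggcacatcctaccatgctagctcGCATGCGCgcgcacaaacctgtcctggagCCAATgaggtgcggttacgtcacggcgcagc

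Counted from the first base shown, the NRF1 core lay at bases 191 to 198 in Cycs and at 197 to 204 in Sdhb. The ETS motif lay at 224 to 230 in Ndufs3 and at 185 to 191 in Uqcr11. Further matches counted above lie at or past the annotated start and so are not, or not wholly, in the bases shown: an ETS motif at 252 to 258 in Ndufs3 and at 257 to 263 in Sdhb, and an NRF1 core at 247 to 254 in Uqcr11. Sdhb and Uqcr11 therefore each hold both motifs. The remaining capitals mark CCAAT, at 220 to 224 in Cycs and, as its reverse complement, at 242 to 246 in Sdhb.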

How the data were processed

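Total RNA of 2 wild-type and 2 heterozygous pools was measured on 4 arrays. The authors deposited 1 linear intensity for each probe set and array. The software behind it was not given in the sources used here. With 2% removed at each end and controls left out, trimmed means ran from 1486.5 to 1488.07, so the deposited intensities were used as they stand, and signals are relative within an array.

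The 66 controls were removed, signals below the 10th percentile (36.25) were raised to it, log2 was taken, and the 40% of probe sets with the lowest mean were not tested, which left 7453. No value of a tested member was raised. limma 3.58.1 in R 4.3.3 (lmFit, eBayes with a trend, genotype as the only term) gave two-sided p-values, adjusted by Benjamini-Hochberg over all tested probe sets. The number of arrays limits the precision, and with 2 pools a group the smallest two-sided p of an exact permutation test is 0.333.

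Names come from the platform annotation (10833 probe sets with 1 symbol, 396 with several, 1193 with none); 6 probe sets naming members among several symbols were left out. All 46 member genes matched RefSeq by gene ID. A gene is read on its brightest probe set. Genes with values in every pool are the 8 called members with the smallest p, all of complex II, III and cytochrome c, the core of complex I, and members with discordant probe sets; up to 3 genes of other lists with the smallest p are named. Ndufa10, Ndufa7 and Sdhaf1 were given pool values after their values were seen. The members and lists were chosen with earlier results of these data known. The fit was tested on simulated data. Alternatives were other scalings, filters, floors and moderation, a replicate block, a stricter threshold and each pool left out. Plots were drawn with matplotlib 3.10.9.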

Additional observations from a re-analysis of the deposited data

How the results depend on the processing

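Sarcomere centring aside, the 48 tested member probe sets kept their direction except those of Ndufa8 and Ndufs4, neither of them called, which turned to -0.024 (Ndufa8, cyclic loess), -0.056 (Ndufa8 without heterozygous pool 2) and -0.00044 (Ndufs4 without heterozygous pool 1). With a common median the median log2 changes were 0.79 (members), 0.80 (complex I), 0.94 (II) and 0.76 (III), and higher calls made up 62.5% of all calls in place of 46.8%. Under quantile normalization they were 0.43 (members), 0.43 (I) and 0.36 (III), with 1 member lower relative to the sarcomere and a relative median of -0.079. Under cyclic loess 20 member probe sets were higher, medians were 0.33 (members), 0.33 (I), 0.58 (II) and 0.25 (III), and 4 were lower relative to the sarcomere (median -0.069). With arrays centred on the sarcomere, 198 probe sets were higher and 3963 lower (4.76% of calls higher), 3 member probe sets were higher, and medians were -0.033 (members), -0.026 (I), 0.12 (II) and -0.068 (III). There the sign turned for 17 called members: Sdhaf1 -0.069, Ndufb10 -0.033, Uqcrc2 -0.019, Ndufa6 -0.025, Ndufb6 -0.21, Ndufb8 -0.024, Ndufa13 -0.22, Ndufv2 -0.26, Uqcr10 -0.13, Sdhb -0.22, Cyc1 -0.13, Ndufb2 -0.014, Uqcrb -0.12, Ndufb11 -0.027, Ndufab1 -0.11, Ndufb5 -0.074 and Ndufv3 -0.10. The list gene Etfa also turned (-0.021). This follows from subtracting the sarcomere mean change.

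Without the filter on dim probe sets, 482 probe sets were higher and 724 lower, 6 of them members, with 0 members higher relative to the sarcomere and a relative median of -0.072. With the lowest 60% left out, 2 members were lower relative to the sarcomere. Without a trend in eBayes 23 member probe sets were higher and 0 relative to the sarcomere. At a threshold of 0.01 the counts were 691 higher, 968 lower, 21 members and 0 relative. The pool numbers do not pair the samples by label (correlation of deviations 0.16); with the pool number as a replicate block 37 member probe sets were higher, 1445 of all were higher and 1590 lower, and 5 members were higher and 6 lower relative to the sarcomere.

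Leaving out each pool in turn gave 630 to 1125 higher and 1077 to 1164 lower probe sets, 12 to 36 member probe sets higher and 0 lower, and medians of 0.50 to 0.65 (members), 0.50 to 0.72 (I), 0.63 to 0.90 (II) and 0.53 to 0.67 (III). Relative to the sarcomere, 1 to 2 members were higher and 0 to 1 lower (median -0.096 to -0.030). A floor at the 20th percentile changed no member call. Dim members could not be tested, and with 2 pools a group the limits are those of the number of arrays.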
